A study of Mus musculus with 9 samples.

Results

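Lymphocyte and immunoglobulin genes were followed across 9 RNA sequencing libraries of mouse ovary. The set holds 10 genes taken by symbol from the 54838 genes of the expression table: the leukocyte surface genes Ptprc and Cd48, the B cell genes Cd79a, Cd79b and Ms4a1, the T cell gene Cd3e, and the antibody genes Ighm, Ighg1, Igkc and Jchain. All 9 libraries came from ovaries of adult mice at 40 h after PMSG, a gonadotropin that starts the growth of follicles, and all received that treatment. WT, the wild type, gave 3 libraries. Another 3 came from mice labelled DKO LXR (DKO), a double knockout of both liver X receptors, which are nuclear receptors for oxysterols. The last 3 came from the same double knockout with a transgene, labelled DKO LXR TG-AMH-LXRb (DKO_TG), so the DKO libraries are its background without the transgene. The labels give the transgene by its name alone, and do not say which cells express it, which strain was used, whether a library is a single animal or a pool, or whether libraries of a group came from separate animals. The p-values therefore measure the spread between these libraries, which may be partly technical.

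B cells carry membrane immunoglobulin, whose signal is passed on by the CD79A and CD79B chains, and the phosphatase CD45, made by Ptprc, sets how readily such receptors fire. When B cells become plasma cells they secrete antibody, change heavy chain class from IgM to IgG or IgA, and add a J chain to polymeric antibody. The ovary holds resident macrophages and a smaller number of lymphocytes, and follicle growth and ovulation are accompanied by movement of leukocytes.

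Levels are in RPKM, reads per kilobase of exon scaled by library size, and are therefore per length. The libraries held 40.1 to 59.4 M recovered reads, and all 8 granulosa cell genes listed as markers of the ovary were tested and none was at 0. Both receptor transcripts were lower in every knockout library than in any WT library. Nr1h2, which encodes LXRb, averaged 18.8 ± 3.64 RPKM over the WT libraries, 6.53 ± 1.09 over DKO and 5.67 ± 0.458 over DKO_TG (SD, n = 3 each), and Nr1h3, which encodes LXRa, averaged 4.68 ± 0.701, 0.807 ± 0.273 and 0.670 ± 0.145 RPKM. Although the label of DKO_TG names LXRb, Nr1h2 was not called between DKO_TG and DKO (-0.18 on the log2 scale, 95% interval -0.54 to 0.17, limma adjusted p = 0.621), and whether reads of the transgene would be counted on Nr1h2 is not given in the labels. Nr1h2 thus gave no check of the transgene, and DKO_TG names the libraries by their label throughout, in each direction given for them. The WT libraries stood apart in other ways: the nuclear RNA Malat1 averaged 7.38 ± 5.03 RPKM over WT, against 199 ± 19.1 over DKO and 261 ± 16.4 over DKO_TG. Of 18889 tested genes 56.7% were called between DKO and WT and 51.4% between DKO_TG and WT, against 2.23% between DKO_TG and DKO. That library difference and the genotype cannot be told apart in comparisons with WT. Comparisons of DKO_TG with DKO use no WT level, although WT libraries enter the shared estimate of spread. Both comparisons share the DKO libraries.

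Most of the antibody and leukocyte genes were higher in DKO ovaries than in WT ovaries. Of the 10 genes, 7 rose in DKO against WT: Ptprc, Cd48, Cd79b, Ighm, Ighg1, Igkc and Jchain. None fell, Cd79a was not called, and Ms4a1 and Cd3e were below the filter of 0.5 RPKM in 3 libraries and were not tested. The background was high in this comparison, with 30.8% of the genes tested called upward and 25.9% downward, at a Benjamini-Hochberg adjusted p under 0.05 in limma. The count of the 10 called lower was 0 in limma, 0 at an unadjusted p under 0.05 and 0 with limma-voom on recovered reads. The same 7 genes were above every WT library in all 3 DKO libraries, which was so for 32.6% of all tested genes, and 0 of the 10 lay below, against 28.6%. The median difference of the 8 tested genes was 1.70 on the log2(RPKM + 0.5) scale, and that of all tested genes was 0.02. In DKO_TG against DKO, 6 of the 10 fell, all but Jchain of the 7 above, and 1.73% of all tested genes were called lower. None was called higher in limma, at an unadjusted p under 0.05 or with voom. Cd79b, counted in both directions, and Cd79a met the filter only with the DKO libraries. In bulk tissue, more cells of a type and more RNA in each cell cannot be told apart.

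**Figure D1:**
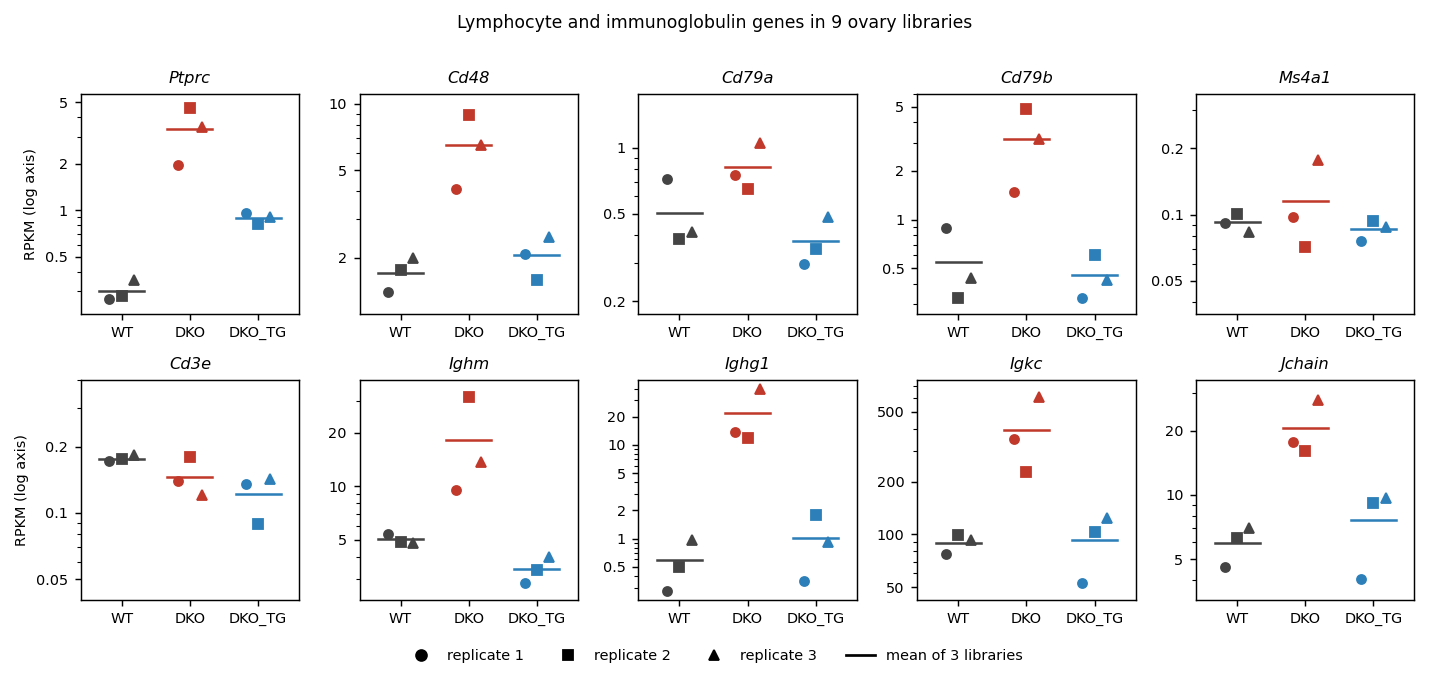
Level of each of the 10 genes in RPKM on logarithmic axes that differ between panels, with 1 symbol for each library and a line at the mean of 3 libraries. The DKO libraries lie above every WT library for 7 genes and above every DKO_TG library for 8 genes, while Ms4a1 and Cd3e stay under 0.2 RPKM throughout.

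The broad leukocyte genes rose in DKO. Ptprc, which makes the phosphatase CD45 of all nucleated blood cells (chr1:138062861-138175708 on mm10, minus strand), measured 0.268, 0.280 and 0.352 RPKM in the WT libraries, 1.97, 4.56 and 3.48 in the DKO libraries and 0.961, 0.813 and 0.906 in the DKO_TG libraries. The 3 groups did not overlap: DKO was highest, DKO_TG between, and WT lowest. The log2 difference was 2.20 (SE 0.22, limma adjusted p = 8.74e-05) for DKO against WT, and -1.4 (SE 0.22, limma adjusted p = 0.0210) for DKO_TG against DKO. Ptprc was also the only one of the 10 genes called higher in DKO_TG than in WT, by 0.80 (SE 0.22, limma adjusted p = 0.0162), a comparison in which 29.1% of tested genes were called in that direction and 22.3% in the other. That last call was lost with no filter, with quantile normalization and without DKO_TG replicate 1.

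Cd48, a surface protein of most leukocytes that binds CD244 and CD2 (chr1:171682009-171705258, plus strand), measured 1.4, 1.75 and 1.98 RPKM in the WT libraries, 4.11, 8.89 and 6.49 in the DKO libraries and 2.07, 1.58 and 2.48 in the DKO_TG libraries. Every DKO library was above every other, and WT and DKO_TG overlapped. Its log2 difference was 1.61 (SE 0.25, limma adjusted p = 0.000796) for DKO against WT, and -1.42 (SE 0.25, limma adjusted p = 0.0289) for DKO_TG against DKO. The ratio of Cd48 to Ptprc was 5.2 to 6.25 in WT, 1.87 to 2.08 in DKO and 1.94 to 2.74 in DKO_TG. WT thus had more Cd48 per Ptprc than any knockout library, with or without the transgene, and this ratio does not depend on how a library is scaled. It parts WT from the other libraries, as Malat1 does, so genotype and library difference cannot be told apart in it.

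Promoter windows are shown for 3 genes that rose, as those with a RefSeq entry on build GRCm38.p6, from 250 bases before to 50 after the start. Entries were found for 5 of the 10 genes. Capitals mark AGGAAG or its reverse complement CTTCCT, the core of sites for ETS factors, a family used widely in blood cells.
Ptprc (chr1:138175256-138175555, minus strand): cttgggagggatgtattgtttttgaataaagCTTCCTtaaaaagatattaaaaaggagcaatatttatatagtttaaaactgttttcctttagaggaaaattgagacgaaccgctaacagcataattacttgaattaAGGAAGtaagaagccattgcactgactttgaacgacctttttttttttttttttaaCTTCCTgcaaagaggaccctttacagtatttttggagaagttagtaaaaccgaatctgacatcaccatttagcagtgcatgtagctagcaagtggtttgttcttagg
Cd48 (chr1:171681742-171682041, plus strand): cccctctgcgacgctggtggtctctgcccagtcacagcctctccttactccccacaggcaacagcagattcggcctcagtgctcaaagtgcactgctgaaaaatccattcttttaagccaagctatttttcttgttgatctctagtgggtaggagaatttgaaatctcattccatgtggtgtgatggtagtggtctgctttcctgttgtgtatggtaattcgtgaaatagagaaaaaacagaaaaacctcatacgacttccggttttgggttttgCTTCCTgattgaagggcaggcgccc
Jchain (chr5:88527848-88528147, minus strand): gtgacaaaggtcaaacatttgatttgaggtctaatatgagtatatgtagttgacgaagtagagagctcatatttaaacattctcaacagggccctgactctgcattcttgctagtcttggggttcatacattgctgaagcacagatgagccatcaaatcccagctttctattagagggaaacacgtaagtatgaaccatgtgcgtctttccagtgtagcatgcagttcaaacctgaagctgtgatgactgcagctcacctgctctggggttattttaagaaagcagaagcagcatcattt
The Ptprc window shown held these letters 3 times and the Cd48 window 1 time, and the Jchain window held none. Ptprc had another RefSeq start, whose window (chr1:138175077-138175376, not shown) held them 1 time. Across 32851 windows of the same length 35.4% held them on either strand. They were present in 4 of the 5 genes with an entry, among them Cd79a, which was not called, and Cd3e, which was not tested. The octamer ATGCAAAT, known from immunoglobulin promoters, was in 1.74% of all windows and in 0 of these 5 genes on either strand. Both motifs were picked from 11 letter strings after the windows had been seen, neither contains the other, and a match is a description of the sequence only.

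Of the 3 B cell genes, Cd79b was called, Cd79a was not and Ms4a1 was not tested. Cd79b, a signalling chain of the receptor (chr11:106311341-106314762, minus strand), measured 0.885, 0.328 and 0.434 RPKM in the WT libraries, 1.47, 4.82 and 3.17 in the DKO libraries and 0.329, 0.606 and 0.421 in the DKO_TG libraries. All DKO libraries were above all others, and replicate 1 was the lowest of them. On the log2(RPKM + 0.5) scale the difference was 1.72 (SE 0.34, limma adjusted p = 0.00288) for DKO against WT and -1.84 (SE 0.34, limma adjusted p = 0.0351) for DKO_TG against DKO. Cd79b met the filter only with the DKO libraries, as WT replicate 1 and DKO_TG replicate 2 alone reached 0.5 RPKM elsewhere. Its calls are therefore not independent of how it came to be tested.

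Its partner chain Cd79a (chr7:24897381-24902197, plus strand) measured 0.719, 0.384 and 0.412 RPKM in the WT libraries, 0.751, 0.648 and 1.05 in the DKO libraries and 0.295, 0.347 and 0.482 in the DKO_TG libraries. WT replicate 1 lay inside the DKO range, while all DKO_TG libraries were below all DKO libraries. Cd79a too met the filter only with the DKO libraries, as WT replicate 1 alone reached 0.5 RPKM elsewhere. Neither difference was called. DKO against WT was 0.39 on the log2 scale (95% interval -0.00 to 0.79, limma adjusted p = 0.0813), and DKO_TG against DKO was -0.58 (95% interval -0.98 to -0.19, limma adjusted p = 0.145). The first was called without WT replicate 1 (0.54, limma adjusted p = 0.0317), with columns scaled to the same sum and with the plain total of reads, and quantile normalization turned it to -0.10 (limma adjusted p = 0.650). The ratio of Cd79b to Cd79a was 0.855 to 1.23 in WT, 1.96 to 7.44 in DKO and 0.873 to 1.75 in DKO_TG, so every DKO library had more Cd79b per Cd79a than any other library.

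Ms4a1, the B cell surface protein CD20 (chr19:11249675-11266241, minus strand), measured 0.0917, 0.101 and 0.0836 RPKM in the WT libraries, 0.0979, 0.0710 and 0.178 in the DKO libraries and 0.0762, 0.0935 and 0.0876 in the DKO_TG libraries. The groups overlapped, and no library had more than 72 reads on the gene. Cd3e, a chain of the T cell receptor complex (chr9:44998740-45009627, minus strand), measured 0.171, 0.175 and 0.183 RPKM in the WT libraries, 0.139, 0.18 and 0.120 in the DKO libraries and 0.136, 0.0886 and 0.143 in the DKO_TG libraries, on 15 to 45 reads a library. An exon of Gm48719 on the opposite strand overlaps Cd3e, and reads of the pair cannot be separated where strand was not used. With no filter on low values, the log2 difference between DKO and WT was 0.05 for Ms4a1 (limma adjusted p = 0.779) and -0.07 for Cd3e (limma adjusted p = 0.521). Neither was called, and the 0.5 added to each RPKM value understates changes at such low levels.

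All 4 antibody genes rose in DKO. Igkc, the constant part of the kappa light chain (chr6:70726435-70726966, plus strand), was the most abundant of the 10 in every library. It measured 77.1, 98.6 and 92.8 RPKM in the WT libraries, 352, 227 and 610 in the DKO libraries and 52.9, 103 and 124 in the DKO_TG libraries. All DKO libraries were above all others, and DKO replicate 3 was the highest. Its log2 difference was 2.03 (SE 0.39, limma adjusted p = 0.00250) for DKO against WT and -2.05 (SE 0.39, limma adjusted p = 0.0382) for DKO_TG against DKO.

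Ighm, the IgM heavy chain (chr12:113418558-113422730, minus strand), measured 5.38, 4.87 and 4.79 RPKM in the WT libraries, 9.57, 31.7 and 13.6 in the DKO libraries and 2.87, 3.37 and 4.0 in the DKO_TG libraries. The groups did not overlap, with DKO highest and DKO_TG lowest. As a log2 difference this was 1.59 (SE 0.35, limma adjusted p = 0.00509) for DKO against WT and -2.09 (SE 0.35, limma adjusted p = 0.0259) for DKO_TG against DKO. DKO_TG against WT was -0.50 (95% interval -1.31 to 0.30, limma adjusted p = 0.263) and was not called with all 9 libraries.

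Ighg1, the IgG1 heavy chain (chr12:113325240-113330523, minus strand), had the largest difference of the 8 tested genes. It measured 0.278, 0.5 and 0.974 RPKM in the WT libraries, 13.7, 11.8 and 39.7 in the DKO libraries and 0.356, 1.78 and 0.929 in the DKO_TG libraries. The lowest DKO library was far above the highest of the other 6. The log2 difference was 4.19 (SE 0.50, limma adjusted p = 0.000193) for DKO against WT and -3.77 (SE 0.50, limma adjusted p = 0.0140) for DKO_TG against DKO. IgG heavy chain genes are similar in sequence, so the split of reads between them is uncertain.

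Jchain, the small protein that joins IgM and IgA into polymers (chr5:88519809-88527891, minus strand), measured 4.59, 6.31 and 6.99 RPKM in the WT libraries, 17.7, 16.0 and 27.7 in the DKO libraries and 4.03, 9.19 and 9.69 in the DKO_TG libraries. All DKO libraries were above all others. On the log2(RPKM + 0.5) scale the difference was 1.68 (SE 0.33, limma adjusted p = 0.00276) for DKO against WT. For DKO_TG against DKO it was -1.42 (95% interval -2.16 to -0.67, limma adjusted p = 0.0681), which was not called.

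**Figure D2:**
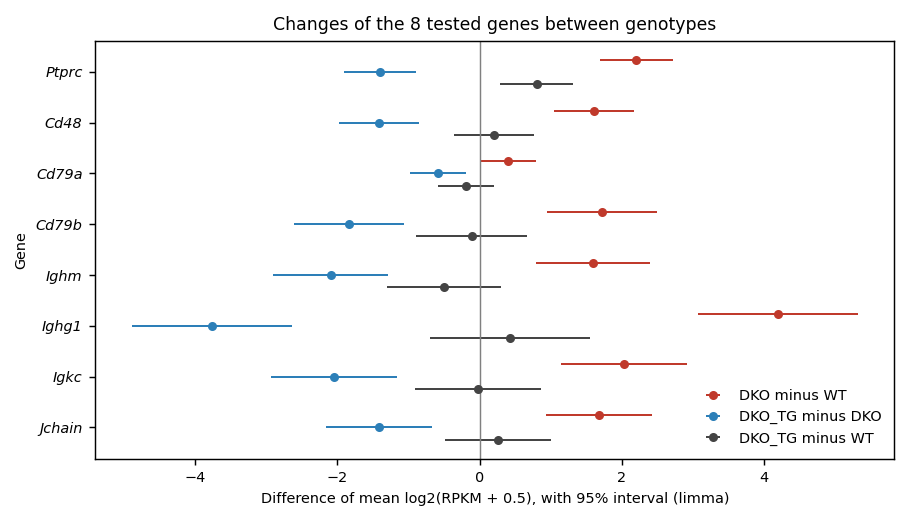
Difference between genotypes in mean log2(RPKM + 0.5) for the 8 tested genes, with 95% intervals from the limma fit of all 9 libraries. Differences of DKO from WT lie to the right of 0 and those of DKO_TG from DKO to the left, and of the differences of DKO_TG from WT the one whose interval excludes 0 is that of Ptprc.

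The calls for DKO against WT held in each of the 20 alternatives tried for all 7 genes. Those for DKO_TG against DKO did not. The 6 genes became 0 with no filter, 0 in a fit restricted to the 6 DKO and DKO_TG libraries and 5 with voom, and 2 without WT replicate 2, 1 without DKO replicate 3, and 0, 1 and 0 without DKO_TG replicates 1, 2 and 3. Over all tested genes the count called lower also dropped, from 327 to between 23 and 30 when a DKO_TG library was left out. Of 12 genes selected from the related lists and called in DKO_TG against DKO, 0 kept the call with every library left out in turn, while 28 of 31 called in DKO against WT did. The levels themselves did not overlap between DKO_TG and DKO for 8 of the 10 genes, the 8 tested ones, against 12.1% of all tested genes. Among them, Cd79a and Cd79b met the filter only with the DKO libraries, which favours DKO being the higher group.

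The mix of heavy chain classes also differed between libraries. The summed level of the 7 heavy chain constant genes was 17.1 to 25.6 RPKM in WT, 82.4 to 164 in DKO and 17.6 to 36.4 in DKO_TG. Igha, which makes IgA, held 49.6 to 66.2% of that sum in WT, 50.5 to 63.5% in DKO_TG, and 47.6, 32.4 and 29.4% in DKO replicates 1, 2 and 3. Ighg1 held 1.62 to 3.85% in WT, 14.3 to 24.2% in DKO and 2.02 to 5.62% in DKO_TG. The share of Ighg1 was thus higher in every DKO library than in any other, and the share of Igha lower. The level of Igha itself rose in DKO, by 1.53 (limma adjusted p = 0.00962), from 13.6 ± 4.46 RPKM in WT to 39.8 ± 11.5 (SD, n = 3 each), a call lost with no filter.

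**Figure D3:**
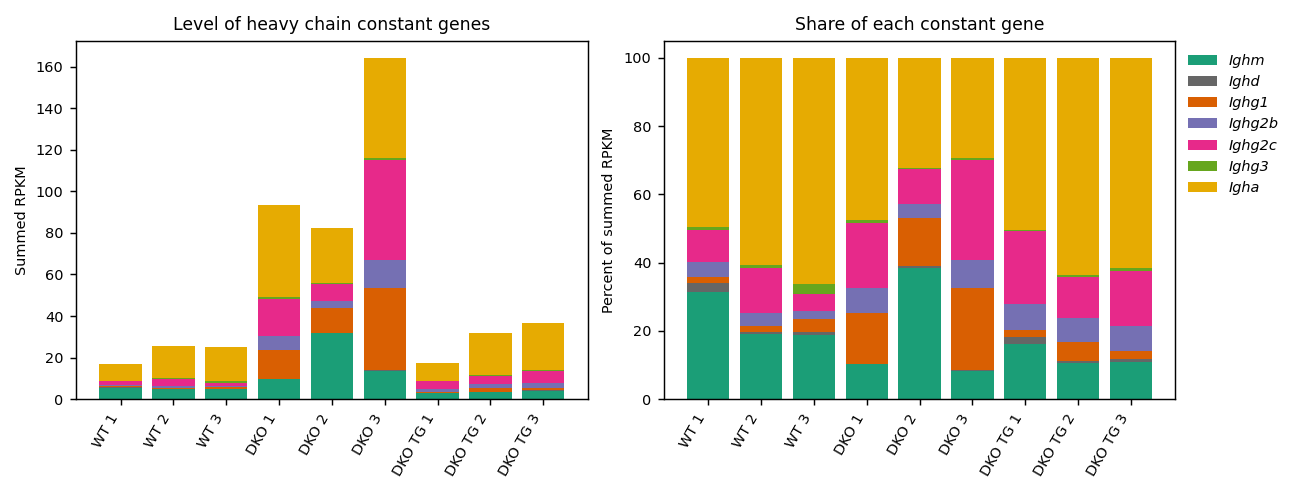
Summed RPKM of the heavy chain constant genes in each library (left, bars from 0) and the percent that each gene contributes (right). The DKO bars reach 82.4 to 164 RPKM against at most 36.4 elsewhere, and within them DKO replicate 2 has the largest share of Ighm, 38.5%.

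DKO libraries did not share a single profile. Replicate 2 was the highest of the 3 for Ptprc, Cd48, Cd79b, Cd3e and Ighm, replicate 3 was the highest for Cd79a, Ms4a1, Ighg1, Igkc and Jchain, and replicate 1 was the highest for none. In replicate 2 the ratio of Igkc to Ighm was 7.15, below all other libraries, and in replicates 1 and 3 it was 36.8 and 44.9, above all others. WT spanned 14.3 to 20.2 and DKO_TG 18.5 to 31.0. Replicate 3 had 29.3% of its heavy chain level in Ighg2c and 24.2% in Ighg1. The ratio of Igkc to the summed lambda constant genes was 11.8 to 20.9 in WT, 16.2 to 26.5 in DKO and 7.52 to 14.1 in DKO_TG.

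Variable segments of the antibody genes, which are joined to the constant genes in B cells, were summed as reads per M reads of the library size behind the RPKM values. The 185 Ighv segments together had 7.53 to 10.9 in WT, 22.8 to 59.1 in DKO and 9.94 to 14.7 in DKO_TG. The 160 Igkv segments had 29.3 to 32.2, 76.2 to 195 and 21.9 to 37.6. DKO libraries were above all others in both families. The leading Ighv segment held 4.76 to 6.67% of the Ighv reads in WT, 4.96 to 10.01% in DKO and 4.74 to 8.45% in DKO_TG. Between 105 and 124 Ighv segments had a read in the DKO libraries, 79 to 98 in WT and 87 to 98 in DKO_TG, and this number grows with the reads counted. Igkv1-110 led the kappa segments in 8 of 9 libraries. Related segments share sequence, so reads of single segments are uncertain. Among T cell receptor segments, Trav segments had 0.246 to 0.895 per M in WT, 0.535 to 0.944 in DKO and 0.217 to 0.492 in DKO_TG, so DKO overlapped WT and lay above DKO_TG, on at most 58 reads a library. The Trbv segments had 0.327 to 0.414 per M in WT, 0.215 to 0.814 in DKO and 0.145 to 0.902 in DKO_TG, and the groups overlapped.

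Other B cell genes were mostly too low to test. Of 18 B cell surface proteins and transcription factors, 6 were tested, 3 rose in DKO and none fell, and 11 were under 0.5 RPKM in every library. Cd72, a receptor that restrains B cell signalling, rose by 2.69 (SE 0.40, limma adjusted p = 0.000704), from 0.621 ± 0.0423 RPKM in WT to 7.80 ± 4.51 in DKO (SD, n = 3 each), and it fell by 2.47 in DKO_TG (limma adjusted p = 0.0226). Its exons overlap those of Tesk1. Cd72 was the 1 gene of the list called in DKO_TG against DKO, and 0 were called with voom. Of the 18 genes, 7 had a higher mean RPKM in DKO_TG than in DKO. Summed over the list, levels were 4.27 to 5.95 RPKM in WT, 8.33 to 24.1 in DKO and 10.4 to 16.1 in DKO_TG. Most of that sum came from Cd72 in DKO and from Ly6d in DKO_TG, so it does not measure B cells. Ly6d averaged 0.982, 4.38 and 7.71 RPKM over WT, DKO and DKO_TG. It was not called in DKO_TG against DKO (limma adjusted p = 0.479).

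Among genes that signal downstream of the receptor, more were high enough to test. Of 12, 11 were tested, 8 rose in DKO and none fell, and 5 fell in DKO_TG against DKO. Syk, the kinase that CD79 chains recruit, rose by 1.19 (limma adjusted p = 0.000576). Vav1, an exchange factor in the same pathway, fell by 1.23 in DKO_TG against DKO (limma adjusted p = 0.0357). Ptpn6, a phosphatase that damps the receptor, rose by 2.07 (limma adjusted p = 0.000631) and fell by 1.67 (limma adjusted p = 0.0339), with exons that overlap Gm20531. Malt1, which links the receptor to NF-kB, rose by 1.06 in DKO (limma adjusted p = 0.000322) but stood at 1.87, 1.78 and 1.90 RPKM in DKO_TG against 2.06, 1.38 and 2.21 in DKO, a difference of -0.00 (limma adjusted p = 0.992). Myeloid cells also use Syk, Vav1 and Ptpn6.

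Among 11 plasma cell genes, 8 were tested, 3 rose in DKO, a share near the 30.8% of all tested genes, and 1 fell, and none was called in DKO_TG against DKO (2 lower at an unadjusted p under 0.05, 0 with voom). The summed levels overlapped, at 137 to 182 RPKM in WT, 108 to 192 in DKO and 146 to 208 in DKO_TG. Most of that sum came from Sdc1, Xbp1 and Creld2, at means of 71.9, 48.7 and 29.3 RPKM over all libraries. It therefore follows these genes and does not measure plasma cells. Mzb1, a chaperone for antibody assembly, measured 0.362, 0.445 and 0.595 RPKM in the WT libraries, 2.31, 1.62 and 2.13 in the DKO libraries and 0.747, 1.23 and 1.44 in the DKO_TG libraries. The groups did not overlap, and the log2 difference of DKO from WT was 1.38 (SE 0.19, limma adjusted p = 0.000413). An exon of SPATA24 overlaps it on the same strand. Prdm1, the transcription factor of plasma cells, rose by 0.47 (limma adjusted p = 0.0137), and Pim2, a survival kinase, by 0.59 (limma adjusted p = 0.000554). The 1 that fell was Fkbp11, a folding enzyme of secretory cells named after its values were seen (-0.40, limma adjusted p = 0.0472). That call was kept without WT replicate 1 or DKO replicate 3 and lost without any of the 7 others, and its sign turned with columns scaled to the same sum. Xbp1, a transcription factor of secretory cells, differed by -0.05 (limma adjusted p = 0.670) and was not called. Of 9 further antibody constant genes, 7 were tested and 5 rose in DKO. Ighg2c rose by 3.02 (SE 0.55, limma adjusted p = 0.00196), Ighg2b by 2.58 (SE 0.41, limma adjusted p = 0.000945) and the lambda gene Iglc2 by 1.64 (SE 0.34, limma adjusted p = 0.00376). Iglc2 was the 1 that also fell in DKO_TG, by 1.84 (limma adjusted p = 0.0352), and its exons overlap Iglj2.

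Few T cell genes were high enough to test. Of 20, 7 were tested and 3 rose in DKO, against 30.8% of all tested genes, and none was called in DKO_TG against DKO (1 higher at an unadjusted p under 0.05, 0 with voom). Trbc1, a constant gene of the T cell receptor beta chain, rose by 0.55 (SE 0.11, limma adjusted p = 0.00320), Trbc2 by 0.46 (limma adjusted p = 0.0263) and the adaptor Lat by 0.60 (limma adjusted p = 0.00381). Lat overlaps Mir7058, quantile normalization turned it to -0.06, and the call of Trbc2 was lost without WT replicate 1, WT replicate 3 or DKO replicate 2. Summed levels were 20.5 to 22.6 RPKM in WT, 20.7 to 22.7 in DKO and 23.8 to 25.2 in DKO_TG. Tcf7 alone averaged 12.1, 10.8 and 14.2 RPKM over WT, DKO and DKO_TG. The sum therefore mainly follows that gene and does not measure T cells. Among 12 genes of natural killer and cytotoxic cells, 4 were tested and none was called in DKO against WT in limma, at an unadjusted p under 0.05 or with voom.

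Genes that go with Ptprc and Cd48 were described as 3 lists. Of 14 genes expressed in most leukocytes, 13 were tested and 9 rose in DKO, and 4 fell in DKO_TG against DKO. Coro1a, an actin regulator of blood cells, rose by 1.44 (limma adjusted p = 0.00102) and fell by 1.48 (limma adjusted p = 0.0208), and its exons overlap Bola2. Rac2, a GTPase of blood cells, averaged 6.24 ± 2.41 RPKM over DKO against 1.66 ± 0.0251 over DKO_TG (SD, n = 3 each) and fell by 1.58 (limma adjusted p = 0.0171). In the SLAM family, to which Cd48 belongs, and its adaptors, 5 of 10 were tested, 3 rose in DKO and 2 fell in DKO_TG. The shares of all tested genes called in these directions were 30.8% and 1.73%. Sh2d1b1, counted in both directions, passed the filter through the DKO libraries alone, at 0.806, 4.10 and 2.34 RPKM. Its calls are therefore not independent of how it came to be tested. Slamf9 averaged 1.42 ± 0.314 RPKM over WT, 7.38 ± 3.70 over DKO and 1.19 ± 0.148 over DKO_TG, a difference of 1.92 (limma adjusted p = 0.00152) and then of -2.10 (limma adjusted p = 0.0209). Of 9 substrates and regulators of CD45, all tested, 2 rose in DKO and 1 fell, against 30.8% and 25.9% of all tested genes. Lgals1, a lectin that binds CD45, fell by 0.94 (limma adjusted p = 0.0210), a call lost without WT replicate 1.

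Genes of macrophages, neutrophils and red blood cells were read beside these results. Of 15 macrophage genes, 14 were tested, 11 rose in DKO and 8 fell in DKO_TG against DKO. Their summed level was 223 to 280 RPKM in WT, 315 to 630 in DKO and 203 to 256 in DKO_TG, none was at 0, and DKO replicate 2 was highest, as for Ptprc, Cd48, Cd79b and Ighm. Adgre1, the macrophage marker F4/80, rose by 1.46 (SE 0.21, limma adjusted p = 0.000537) in DKO, and C1qc, a complement component made by macrophages, fell by 1.74 (limma adjusted p = 0.0143) in DKO_TG against DKO. Itgam, counted in both directions, passed the filter through the DKO libraries alone, at 0.856, 2.45 and 1.77 RPKM. The ratio of Ptprc to Adgre1 was 0.0985 to 0.116 in WT, 0.264 to 0.518 in DKO and 0.280 to 0.323 in DKO_TG. WT again stood apart, with the same limit as other comparisons with WT. Of 10 neutrophil genes, 7 were tested and 5 rose in DKO, with a summed level of 2.46 to 3.45 RPKM in WT, 9.56, 24.9 and 104 in DKO replicates 1, 2 and 3, and 3.69 to 4.30 in DKO_TG. Replicate 3 was the highest, as for Ighg1, Igkc and Jchain. Retnlg and Ngp, among the neutrophil genes that rose, also passed the filter through the DKO libraries alone. Summed red blood cell genes were at 361 to 1657 RPKM in WT, 563 to 2414 in DKO and 198 to 285 in DKO_TG. None of the 5 red blood cell genes tested was called in DKO_TG against DKO in limma, 0 with voom, and 5 were lower at an unadjusted p under 0.05. The part of macrophages, neutrophils and blood in the results above was not tested.

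Chemokines of lymphoid tissue were measured as a list of 8 stromal genes, of which 6 were tested, 3 rose in DKO and 1 fell in DKO_TG. Of all tested genes, 30.8% and 1.73% were called in these directions. Cxcl13, which draws B cells into follicles of lymphoid tissue, measured 0.247, 0.389 and 0.792 RPKM in the WT libraries, 3.72, 54.0 and 84.8 in the DKO libraries and 0.535, 0.419 and 0.140 in the DKO_TG libraries. All DKO libraries were above all others, with replicate 1 far below replicates 2 and 3. As a log2 difference this was 4.83 (SE 0.94, limma adjusted p = 0.00266) for DKO against WT and -4.99 (SE 0.94, limma adjusted p = 0.0361) for DKO_TG against DKO. Cxcl13 met the filter only with the DKO libraries, as WT replicate 3 and DKO_TG replicate 1 alone reached 0.5 RPKM elsewhere. Its calls are therefore not independent of how it came to be tested. Ccl21a and Ccl19, which guide T cells and dendritic cells, rose by 1.01 (limma adjusted p = 0.00926) and 0.73 (limma adjusted p = 0.00257). The summed level of the list was 46.6 to 52.2 RPKM in WT, 97.5 to 171 in DKO and 42.6 to 79.9 in DKO_TG, and whether lymph node tissue entered a library was not tested.

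**Figure D4:**
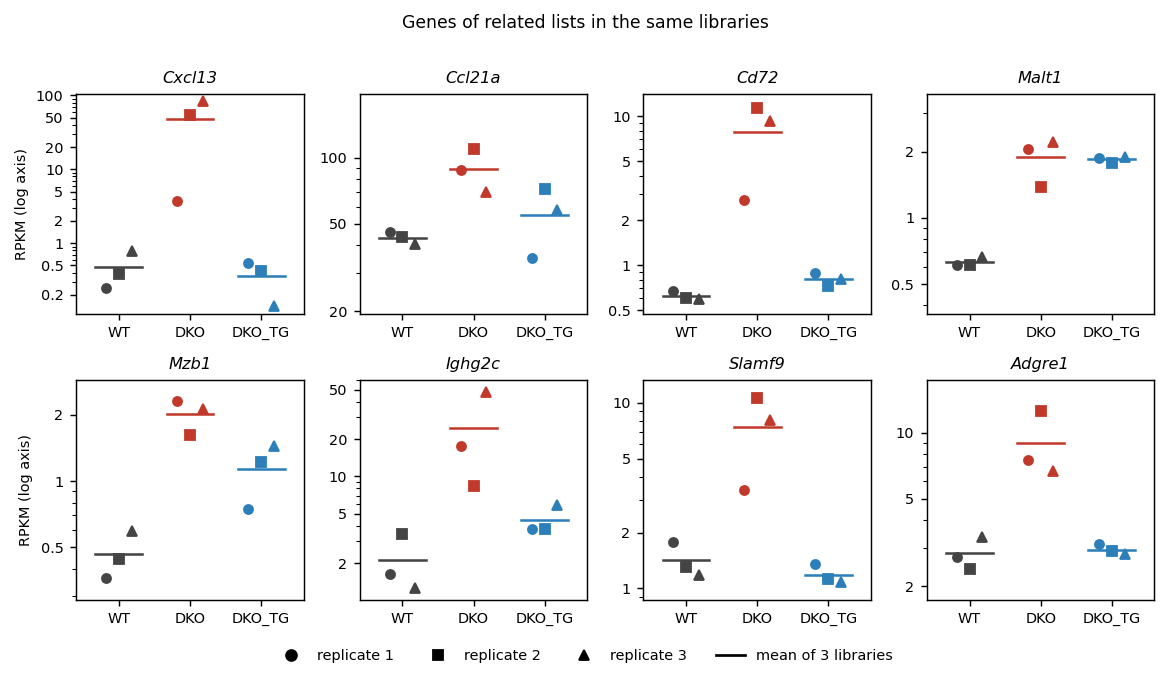
Level of 8 genes from the related lists in RPKM on logarithmic axes that differ between panels, with 1 symbol for each library and a line at the mean of 3 libraries. Cxcl13, Cd72, Slamf9 and Adgre1 were high in the DKO libraries alone, while Malt1 in DKO_TG, at 1.78 to 1.90 RPKM, lay within its DKO range of 1.38 to 2.21.

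Nearest patterns were sought for the 7 genes with a mean of at least 1 RPKM, as the smallest root mean square difference of log2 levels over 9 libraries after each gene's mean was subtracted. These are descriptions over libraries of 3 groups. Closest to Cd48 was Il10ra, the interleukin-10 receptor, at 0.0816, and closest to Ptprc were Pira2 at 0.135 and Lilra6 at 0.146, receptors of myeloid cells. Cd79b was nearest to Lcp2, an adaptor of blood cells, at 0.205, and Ighm to the myeloid receptor Clec12a at 0.272. Jchain was nearest to Igha at 0.202, and Igkc to the kappa segment Igkv4-61 at 0.366. Ighg1 lay farthest from its nearest gene, which was S100a9, a neutrophil protein, at 0.781. Among the 28 pairs of the 8 tested genes, Cd79b and Ighm were nearest at 0.292, followed by Cd48 and Ptprc at 0.307, and Igkc and Jchain at 0.317.

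No antibody gene was called between DKO_TG and WT in the limma fit of all 9 libraries, and the count of the 10 called lower was 0, also at an unadjusted p under 0.05 and with voom. Ighm, at -0.50, was called lower in a fit of the 6 libraries of these groups (limma adjusted p = 0.0110) and without DKO replicate 2 (limma adjusted p = 0.0246), and Cd79a was with quantile normalization. In log2 units the difference was -0.02 for Igkc (95% interval -0.90 to 0.87, limma adjusted p = 0.973), 0.43 for Ighg1 (-0.70 to 1.55, adjusted p = 0.498) and 0.26 for Jchain (-0.48 to 1.01, adjusted p = 0.531). For Cd79b it was -0.11 (-0.89 to 0.66, adjusted p = 0.798), for Cd79a -0.19 (-0.59 to 0.21, adjusted p = 0.389) and for Cd48 0.20 (-0.37 to 0.76, adjusted p = 0.533). Such intervals leave room for differences of either sign, and those of Igkc, Cd79a, Cd79b, Cd48 and Ighg1 changed sign with the scaling of libraries. Of the 10 genes, 1 lay above all WT libraries in all DKO_TG libraries (Ptprc) and 2 lay below (Cd3e and Ighm), against 35.6% and 30.2% of all tested genes.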

How the data were processed

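Total RNA of 9 mouse ovary libraries was sequenced, 3 for each genotype. The authors deposited 1 table of RPKM values for 54838 genes. Per the submitters' processing notes, cutadapt, HISAT2 2.1.0, HTSeq 0.5.4p5, DESeq2 1.2.8 and the build mm10 were named, with no order or settings. How the RPKM values were made, and with which annotation and strand setting, was not given in the sources used here. Columns of the transgenic libraries spell the transgene in another way and were assigned by group and replicate number.

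Multiplying RPKM by exon length from GENCODE M21 (54809 genes matched) gave whole reads for 97.8% of values above 0, within 0.01 read or a relative 1e-06. The library size behind the RPKM values was 0.793 to 0.920 of the total reads in WT and 1.03 to 1.11 in the others.

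Differences were tested on log2(RPKM + 0.5), which understates changes of low genes, with limma 3.58.1 (R 4.3.3, eBayes with trend) in 1 fit of 9 libraries over 18889 genes with at least 0.5 RPKM in 3 libraries. Genes were called at a Benjamini-Hochberg adjusted p under 0.05 over all tested genes. A gene could pass the filter through a single group, which favours calls with that group higher. Log2 correlations within groups were 0.968 to 0.993, and no 2 replicates agreed within sampling noise (chi-square per gene 20.3 to 124). The genes and lists were chosen with earlier results of these data known. From each list, up to 3 genes with the smallest adjusted p for DKO against WT and 2 for DKO_TG against DKO could be named. Genes named for their weight in a sum, or for how they passed the filter, are outside that rule. Some genes that this rule selects are not reported here. Copies of Ccl19 and Ccl21a on unplaced scaffolds were left out. The alternatives were other pseudocounts, filters and scalings, limma-voom on the recovered reads, a replicate block, 6-library fits and leaving out each library.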

Additional observations from a re-analysis of the deposited data

How the results depend on the processing

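The 7 genes called higher in DKO than in WT kept that call in all 20 alternatives. Leaving out 1 library gave 7 to 8 such genes, 5235 to 5988 genes over all tested ones called higher and 3924 to 5216 called lower. For DKO_TG against DKO, the genes of the set called lower were 0 with no filter, 0 in the 6-library fit and 0 to 5 with 1 library left out, and none was called higher. Over all genes the lower calls were 75 with no filter, 44 in the 6-library fit and 23 to 391 with 1 library left out, and the higher calls were 49, 24 and 10 to 111. Libraries of the same number did not deviate together (correlations -0.309 to 0.142, against -0.262 to 0.322 for different numbers). With the replicate number as a block, 1 gene of the set, 78 of all genes lower and 21 higher were called.

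Rescaling the columns to the same sum moved the median of all genes, DKO against WT, to 0.48, and the plain total of reads to 0.28. The higher calls were then 10030 with the same sum, and the lower calls 1065 and 2314. For DKO_TG against WT they were 9740, 994 and 2238. Genes of the set called higher than WT in DKO_TG were 2 with the same sum, 0 with no filter, 0 with quantile normalization and 0 to 1 with 1 library left out. Called lower was 1 with quantile normalization (Cd79a), 1 in the 6-library fit (Ighm) and 0 to 1 with 1 library left out (Ighm, without DKO replicate 2).

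Some signs turned. With quantile normalization, DKO against WT was -0.10 for Cd79a, -0.061 for Lat and -0.066 for Ly9, and DKO_TG against WT was -0.15 for Cd48, -0.058 for Ighg1 and 0.49 for Igkc. With the same sum, DKO against WT was 0.069 for Fkbp11, and DKO_TG against WT was 0.060 for Cd79a, 0.15 for Cd79b and 0.51 for Igkc. With the plain total it was 0.022 for Cd79b and 0.25 for Igkc. With 1 library left out it ranged from -0.27 to 0.10 for Cd79b, above 0 without WT replicate 1, and from -0.27 to 0.34 for Igkc, above 0 without WT replicate 2, WT replicate 3 or DKO_TG replicate 1. The cause was not tested. Ms4a1 and Cd3e stood at 15 to 72 reads a library and were below the filter.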
